A study of Rattus norvegicus with 79 samples.

Results

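The genes described here are the neurotrophins Bdnf and Ntf3 and the receptors Ntrk2, Ntrk3 and Ngfr. Every probe set whose single gene symbol in the probe-to-gene table was one of these 5 was taken, which gave 15 of the 8740 probe sets that were not controls, for 5 of the 4736 gene symbols on the array. They are 7 for Bdnf and 2 each for Ntf3, Ntrk2, Ntrk3 and Ngfr. The study used male Fischer 344 rats aged 3 months (young) or 24 months (aged) and a water maze, a pool in which rats learn to find a platform. One array was run for each of 79 rats, on total RNA punched from the cell layer of the CA1 field of the hippocampus the day after the last trial. Cage rats did not swim (3 young, 5 aged), yoked rats swam with no platform (6 young, 8 aged), and visible platform rats were trained with a platform in sight (4 young, 8 aged). Hidden platform rats had to learn where a submerged platform lay. The 6 young ones form 1 group, and the aged ones are labelled unimpaired (13 rats), impaired (10 rats) or carry only the letter B (16 rats), which the labels do not explain and which is used below as a name. All groups are one strain and one sex, the cell layer was dissected by eye from slices, and the labels give no score for how well each rat learned.

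Neurotrophins are small secreted growth factors. They are made as precursors that proteases cut, and the mature dimers bind receptor tyrosine kinases of the Trk family: BDNF binds TrkB, the product of Ntrk2, and neurotrophin 3 binds mainly TrkC, the product of Ntrk3. The p75 receptor encoded by Ngfr binds all neurotrophins and, with sortilin, their precursors. In the hippocampus BDNF acting on TrkB is known for its part in long-term potentiation and spatial memory, and transcription of Bdnf follows neuronal activity from several alternative promoters. TrkB also exists as a truncated form without the kinase, abundant in astrocytes, and adult rat hippocampus makes neurotrophin 3 chiefly in dentate granule cells and CA2.

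Values are MAS5 signals, a linear probe set intensity with no unit, on arrays already scaled to a common level. Signals of different probe sets are not comparable with each other, so each probe set is described on its own. Tests used log2(signal + 15), on which a difference of 1 is about a doubling at high signal and more than that at low signal. They ran over the 5244 probe sets left after the 40% with the lowest mean signal were dropped, and 9 of the 15 neurotrophin and receptor probe sets were among them. These 9 are 4 for Bdnf (rc_AI030286_s_at, S76799_at, D10938exon_s_at and S71196mRNA_s_at), 1 for Ntf3 (M34643_at), 1 for Ntrk2 (M55291_at), 1 for Ntrk3 (S60953_s_at) and both for Ngfr (U25650_f_at and X05137_at). D10938exon_s_at and S71196mRNA_s_at lay just inside that limit, at the 42.8th and 41.96th percentile of mean signal, and M55293_at (Ntrk2), S76758_i_at and S71201mRNA_at (both Bdnf) lay just outside it at the 37.9th, 37.5th and 36.5th. The source sequences of the probe sets are not given here, so which Bdnf transcript or which TrkB form each one reads was not determined.

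Of the 79 arrays, 14 had a median Spearman correlation under 0.85 with the rest. These arrays of low correlation were 2 of 3 young cage, 2 of 4 young visible, 1 of 6 young hidden, 1 of 5 aged cage, 1 of 8 aged yoked, 4 of 8 aged visible, 1 of 13 unimpaired and 2 of 10 impaired rats, with none among young yoked or B rats. The log2 of 3′ over 5′ signal of the actin and GAPDH controls averaged 1.07 ± 1.39 (SD, n = 3) in young cage rats and 3.70 ± 0.93 (SD, n = 5) in aged cage rats. This ratio was read after 2 rounds of amplification, so it does not measure RNA integrity alone. Of the CA1 and pyramidal markers, Hpca (median signal 11189.5), Nrgn (16202.3) and Pou3f1 (2009.2) read clearly, while Slc17a7 (17.7, the 9.5th percentile of mean signal) and Camk2a (93.5, the 38.3th) were under the signal limit. S100b of astrocytes (8296), Mbp of oligodendrocytes (3408.3) and Gad1 of interneurons (2317.6) were also present, and the choroid plexus marker Ttr ran from 119.1 to 42281.2. In such punches, fewer cells of a type and less RNA per cell cannot be told apart.

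Bdnf encodes the main TrkB ligand, and 9 promoter windows were matched among these genes, 6 of Bdnf and 3 of Ntf3 (RefSeq, rat assembly GRCr8, 250 bases before to 50 after a transcript start). Ntrk2, Ntrk3 and Ngfr were not matched. A pair of Bdnf windows is shown because the gene is known for its several starts and for a cAMP response element at an activity-regulated one. The first is window 1, chr3:116619383-116619682 on the plus strand, and the second is window 4, chr3:116637608-116637907 on the plus strand, in which capitals mark a match to TGACGTGA, a variant of the cAMP response element, read on the reverse strand as TCACGTCA.
Bdnf window 1: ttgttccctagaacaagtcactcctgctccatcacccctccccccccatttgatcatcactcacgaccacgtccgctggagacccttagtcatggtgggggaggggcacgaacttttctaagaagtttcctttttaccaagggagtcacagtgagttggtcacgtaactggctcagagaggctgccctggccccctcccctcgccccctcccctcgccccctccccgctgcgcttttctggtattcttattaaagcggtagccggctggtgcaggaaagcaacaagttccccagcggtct
Bdnf window 4: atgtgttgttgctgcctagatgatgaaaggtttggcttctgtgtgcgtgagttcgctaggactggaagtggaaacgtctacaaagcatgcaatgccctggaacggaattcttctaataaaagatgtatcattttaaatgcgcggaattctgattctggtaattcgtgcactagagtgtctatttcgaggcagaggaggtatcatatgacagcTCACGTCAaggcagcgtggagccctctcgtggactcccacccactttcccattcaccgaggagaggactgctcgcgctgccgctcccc
The match begins at position -38 from the start of window 4, counting the start as 0. TGACGTGA was found on either strand in 134 of 33469 rat windows of the same length (0.4%), and among the Bdnf and Ntf3 windows only in window 4. The full element TGACGTCA was found in 612 windows (1.83%) and in none of these 9, and the 5-letter core TGACG in 7097 (21.2%), among these 9 only inside the variant match, which it overlaps. A match of letters is no measure of binding, and the array does not show which start was used. A cAMP response element of Bdnf was known beforehand, so the share of 0.4% is no test of the match. Bdnf windows 5 and 6 overlap, as do Ntf3 windows 2 and 3.

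The Bdnf probe set rc_AI030286_s_at read from 68.8 to 1184.6 over the 79 arrays, with a median of 303. In young rats its signals were 326.2, 436.6 and 586 in cage rats and 345.4, 412.9, 490.4 and 849.2 in visible platform rats. The young yoked rats ran from 204.1 to 1184.6 with a median of 249.7, and the young hidden platform rats from 149.5 to 399.1 with a median of 291.45. In aged rats it read 97.7, 174.8, 188.6, 308.9 and 425.1 in cage rats. The medians of the other aged groups were 227.7 in yoked, 316.65 in visible, 204.7 in unimpaired, 364.05 in impaired and 348.35 in B rats. Every group overlapped others, and the step between neighbouring group means, in order from aged yoked (lowest) to young visible (highest), never passed the larger SD of the pair.
The Bdnf probe set S76799_at had its lowest group mean in B rats (69.5 to 357.3, median 186.1) and its highest in aged visible rats (231 to 1114.6, median 288.05). S71196mRNA_s_at, a dim Bdnf set, read 104.5, 246.1 and 890.5 in young cage rats against 10.6, 47, 63.2, 65.8 and 89.2 in aged cage rats. The largest and the middle of the young cage values came from arrays of low correlation. D10938exon_s_at, also dim, had its lowest group median in young cage rats (49.3) and its highest in aged visible rats (148.2), while by mean log2 value young visible rats were lowest and aged yoked rats highest. The 3 Bdnf sets under the signal limit were weaker on average still, and X67108_at reached 0 on 1 array.

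Ntf3, the neurotrophin 3 gene, was read by M34643_at at 362.6 to 3839.4 (median 843.6). Young cage rats gave 809.9, 3347.8 and 3839.4, of which the upper pair came from arrays of low correlation, and aged cage rats gave 391, 457.1, 497.5, 586.2 and 778.2. These were the highest and the lowest group means of the 10. All other groups lay between them, with medians of 1014.9 in young yoked, 1284.85 in young visible, 725.35 in young hidden, 854.85 in aged yoked, 769.2 in aged visible, 750.3 in unimpaired, 748.8 in impaired and 934.15 in B rats. Ordered by mean, no step between neighbouring groups passed the larger SD of the pair. The second Ntf3 set, E03082cds_s_at, was dim (median 42.6) and had its lowest group mean, not its highest, in young cage rats (12.1, 21 and 23.1).

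Ntrk2, which encodes TrkB, was read by M55291_at at 229.6 to 2281.5 (median 1303.3). It ordered the groups from young cage (229.6, 408.3 and 771.1) to B rats (767.9 to 2281.5, median 1632.35). Aged cage rats read 832.4, 893.3, 955.6, 1182.3 and 1894.4. Median signals were 1124 in young yoked, 985.1 in young visible, 1416.15 in young hidden, 1390.75 in aged yoked and 1178.2 in aged visible rats. This probe set moved with array quality in the opposite direction to the other 8 tested sets: its median was 393.1 on the 14 arrays of low correlation and 1429.1 on the other 65. For Ntf3 M34643_at these medians were 1020.9 and 795.7, for Bdnf S76799_at 459.35 and 262.5, and for Bdnf S71196mRNA_s_at 237.4 and 75.3. The second Ntrk2 set, M55293_at, had medians of 175.65 and 72.1 on the same arrays, higher where M55291_at was lower.

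Ntrk3, which encodes TrkC, was read by S60953_s_at at 67.7 to 1935.5 (median 266.1). Group medians ran from 173.45 in impaired rats to 359.8 in young visible rats, while by mean log2 value the aged cage group was lowest and the aged visible group highest. The 3 highest values (1511.9, 1675 and 1935.5) came from arrays of low correlation, on which the median was 468.45 against 245.4 on the others. Ngfr, the p75 receptor gene, was read by U25650_f_at at 141.4 to 4846.8 (median 1025.5) and by X05137_at at 179.7 to 1518.1 (median 519.6). X05137_at had its lowest mean in aged cage rats, at 186.8, 280.8, 371.5, 440.8 and 446.6, and its highest in aged visible rats, at 484.3 to 1518.1. U25650_f_at had its lowest mean in young visible rats (305.6, 352.2, 713.6 and 841.7) and its highest in young cage rats (1042.9, 1187.1 and 3242.1), so the Ngfr sets did not share a group order. No neighbouring step passed the larger SD for any of these receptor sets.

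**Figure D1:**
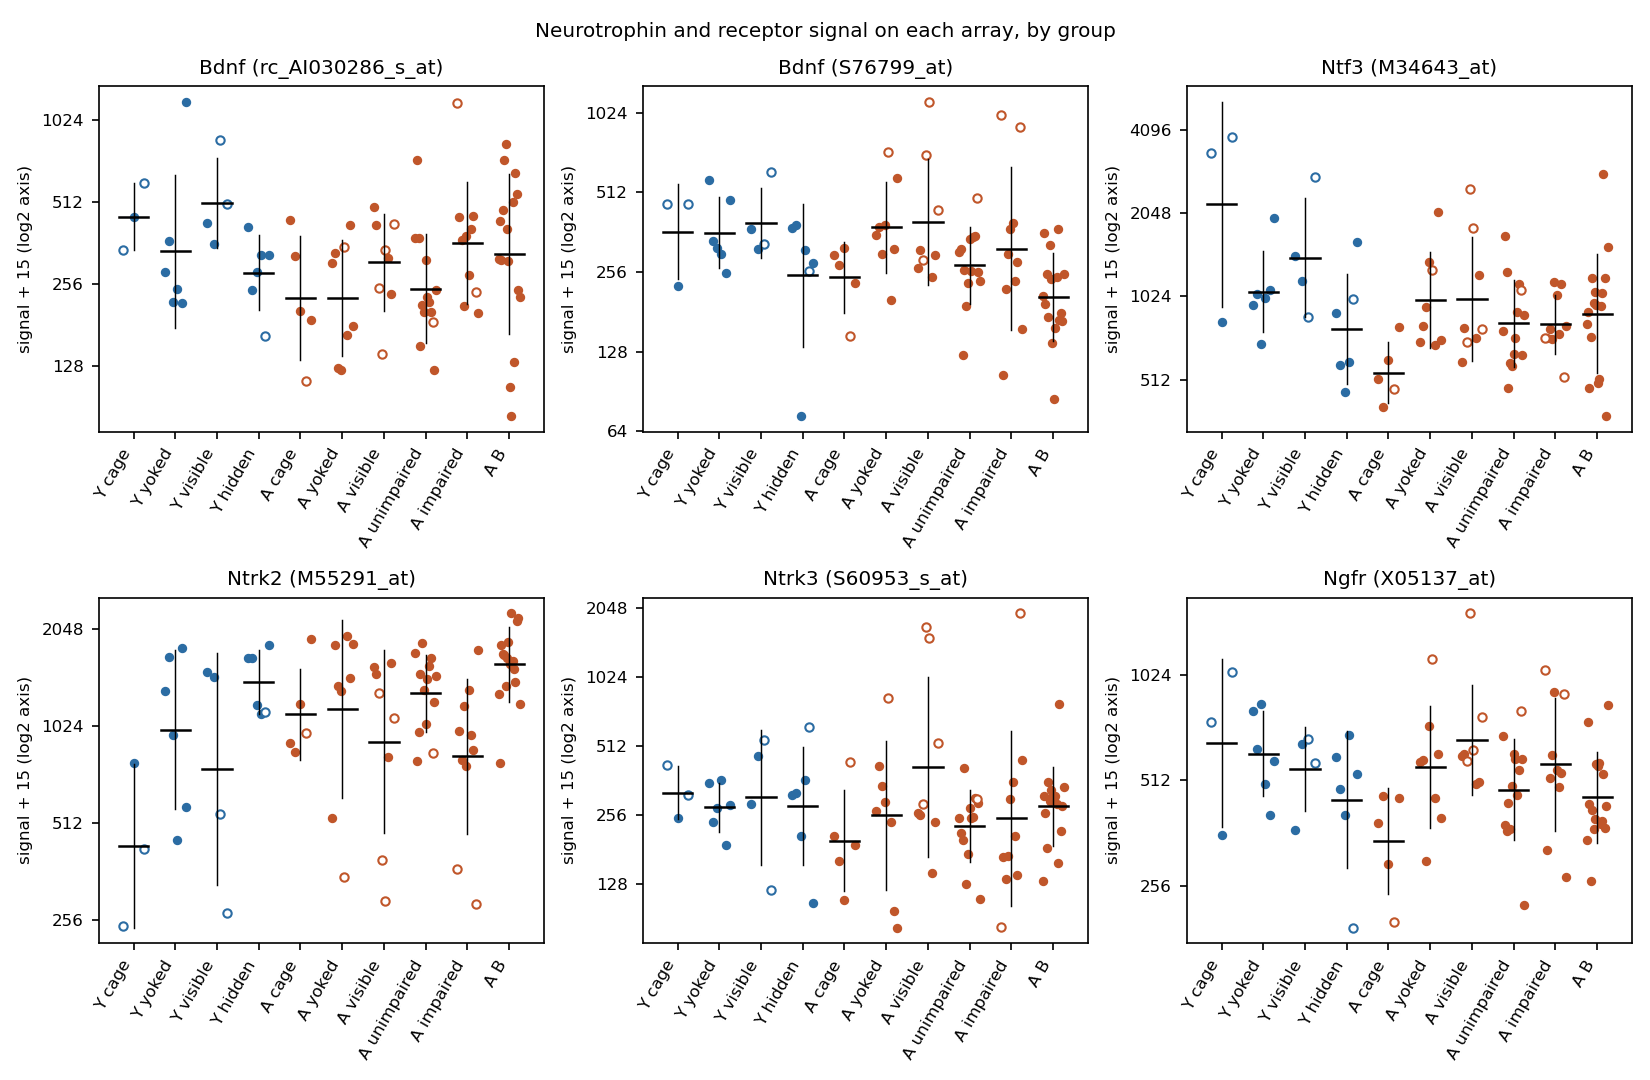
Signal + 15 of 6 probe sets on each of 79 arrays (log2 axis) by group, with Y for 3-month and A for 24-month rats, unimpaired, impaired and B being hidden platform rats; points are rats, open points arrays of low correlation, horizontal lines group means of log2 values and vertical lines 1 SD. Ntf3 is highest in Y cage (809.9 to 3839.4) and lowest in A cage (391 to 778.2), Ntrk2 M55291_at is highest in the B group, and most groups overlap.

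Probe sets of the same gene followed each other weakly across rats. Over the 25 pairs within a gene, Spearman's rho ran from -0.37 to 0.48 with a median of 0.14, and 5 pairs passed an adjusted permutation p of 0.05 on Spearman's rho (8 on Pearson's r), both two-sided. The Bdnf sets S71196mRNA_s_at and S71201mRNA_at had rho = 0.48 (permutation p = 1e-05, the smallest 100000 resamples can give, adjusted 0.00025) and r = 0.47 (permutation p = 3e-05, adjusted 0.00025), with r = 0.44 without the 2 farthest arrays. The Bdnf sets S76799_at and S71196mRNA_s_at had rho = 0.42 (permutation p = 0.00017, adjusted 0.00213) and r = 0.56 (permutation p = 1e-05, adjusted 0.000125), with r = 0.52 without 2 arrays. The Ngfr sets had rho = 0.37 (permutation p = 0.00068, adjusted 0.00567) and r = 0.50 (permutation p = 1e-05, adjusted 0.000125), falling to r = 0.37 without 2 arrays. The Ntrk3 sets had rho = 0.33 (permutation p = 0.00268, adjusted 0.0134) and r = 0.41 (permutation p = 0.00015, adjusted 0.00075), and r = 0.29 without 2 arrays. The Ntrk2 sets were the exception in sign, with rho = -0.37 (permutation p = 0.00098, adjusted 0.00613) and r = -0.44 (permutation p = 5e-05, adjusted 0.000313), and r = -0.55 without 2 arrays. Over the 65 arrays that were not of low correlation, none of the 25 pairs passed on Spearman's rho, the median rho was 0.04, and the Ntrk2 pair had rho = -0.22. The Ntf3 pair, at rho = 0.35 (adjusted permutation p = 0.0541), passed there on Pearson's r alone (adjusted permutation p = 0.0143). The pairs share arrays, so a few arrays that are high for both sets enter several values.

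**Figure D2:**
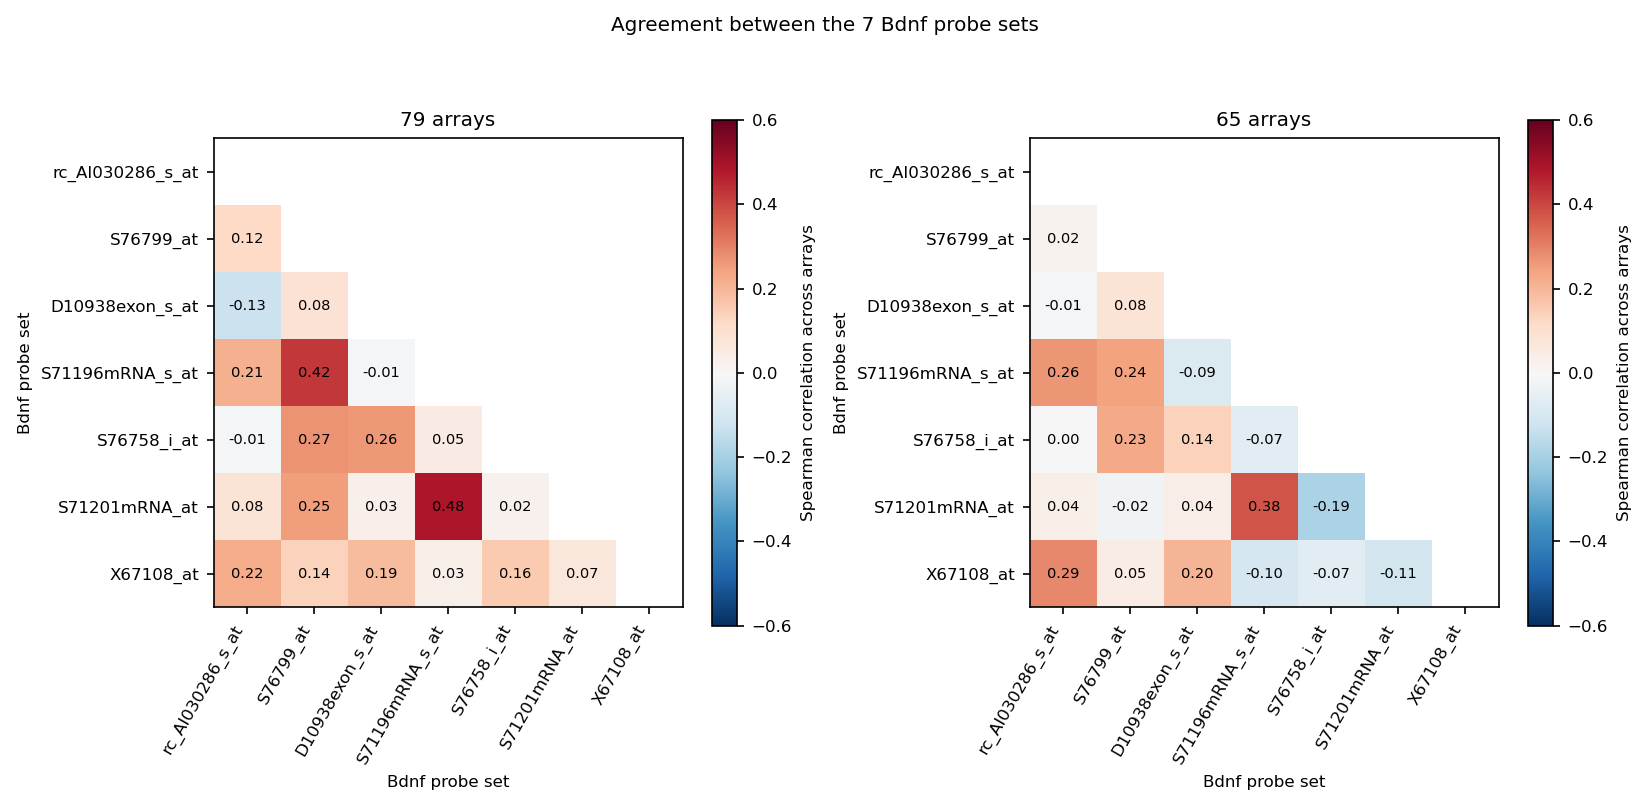
Spearman correlation (colour, and the number in each cell) between the log2 values of each pair of the 7 Bdnf probe sets, over all 79 rats on the left and the 65 rats without arrays of low correlation on the right. The darkest cell pairs S71196mRNA_s_at with S71201mRNA_at (0.48 and 0.38), and most other cells lie near 0.

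Whether the genes differ with age was asked over 63 arrays with treatment as a term, B rats left out. None of the 9 probe sets passed (limma with Benjamini-Hochberg adjustment over all 5244), where 5.13% of all tested probe sets did. At an unadjusted p under 0.05 there were 2 of the 9, and 20.8% of all. Bdnf rc_AI030286_s_at was lower in aged rats by a log2 difference of -0.43 ± 0.20 (SE, 44 aged and 19 young rats, 95% interval -0.82 to -0.05, limma adjusted p = 0.177). Of the 44 aged rats, 32 lay below the young mean of their own treatment. Ntf3 M34643_at differed by -0.41 ± 0.18 (limma adjusted p = 0.18), with 28 of 44 aged rats below the young mean of their own treatment. Without the arrays of low correlation it differed by -0.13 ± 0.16 (limma adjusted p = 0.619). The receptor sets differed by between -0.14 (Ntrk3) and 0.25 (Ngfr U25650_f_at), Ntrk2 M55291_at by 0.17 ± 0.22 with a 95% interval of -0.26 to 0.59. The median of the 9 was -0.04, and that of all tested probe sets -0.05. Bdnf D10938exon_s_at differed by 0.36 ± 0.19 (adjusted p = 0.276), opposite in sign to rc_AI030286_s_at, so the Bdnf sets gave no common direction.

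The interaction of age and treatment asked if age differences varied between treatments. Again 0 of 9 passed, against 0.305% of all, and 2 of 9 against 14.3% had an unadjusted p under 0.05 (limma). Ntf3 M34643_at had the smallest value, F = 5.90 on 3 degrees of freedom with adjusted p = 0.0786, and F = 1.23 with adjusted p = 0.711 without the arrays of low correlation. Age differences within each treatment, a split chosen after the data were seen, give the parts of that F. In cage rats, Ntf3 M34643_at fell by 2.02 ± 0.44 on the log2 scale (SE, 5 aged and 3 young rats, limma adjusted p = 0.00125), with all 5 aged rats under the young mean. It was the only 1 of 9 to pass, against 17.2% of all tested probe sets, whose median moved by -0.27. An unadjusted p under 0.05 was reached by 5 of the 9 and by 32.5% of all (limma). In the same model Ntf3 M34643_at differed by -0.11 ± 0.32 in yoked rats, -0.49 ± 0.37 in visible platform rats and 0.06 ± 0.28 in hidden platform rats, none of which passed.
The Ntf3 difference in cage rats rests on 2 of the 3 young arrays. Without the arrays of low correlation 1 young cage rat remained, and the difference was -0.56 ± 0.55 (adjusted p = 0.63); the lone rat is then assumed to vary like the other groups. With the 3′ to 5′ measure added as a term it was -1.54 ± 0.45 (adjusted p = 0.0613). Among the markers in cage rats, 1 of 5 interneuron markers was called higher and 2 lower in aged rats. Of the others, 2 of 5 oligodendrocyte and 2 of 3 microglia markers were called higher. For the neighbouring hippocampal fields 0 of 4 were called either way, where 17.2% of all tested probe sets were. The summed signal of the interneuron list, to which Sst and Gad1 add most, was 5868.2 to 27246.3 in young cage and 4440.4 to 7260.7 in aged cage rats, with overlap. For the neighbouring fields it was 1641 to 3798.7 in young cage and 1450.8 to 2141.3 in aged cage rats, also with overlap. The median log2 difference of those 4 field markers was -0.58, against -0.27 over all tested probe sets. The part of these cells in the Ntf3 value was not tested. In the cage groups, Bdnf S71196mRNA_s_at differed by -2.26 ± 0.85 (adjusted p = 0.0546), Ntrk2 M55291_at by 1.36 ± 0.53 (adjusted p = 0.0651), and Ngfr X05137_at by -0.92 ± 0.41 (adjusted p = 0.103). Without the arrays of low correlation these 3 were -0.98, 0.55 and 0.14. None of these passed, and in the visible, yoked and hidden groups none of the 9 probe sets passed either, where 0.0381%, 0% and 0% of all tested probe sets did (limma). At an unadjusted p under 0.05 these 3 groups had 0 of the 9, and 7.06%, 7.86% and 2.15% of all.

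**Figure D3:**
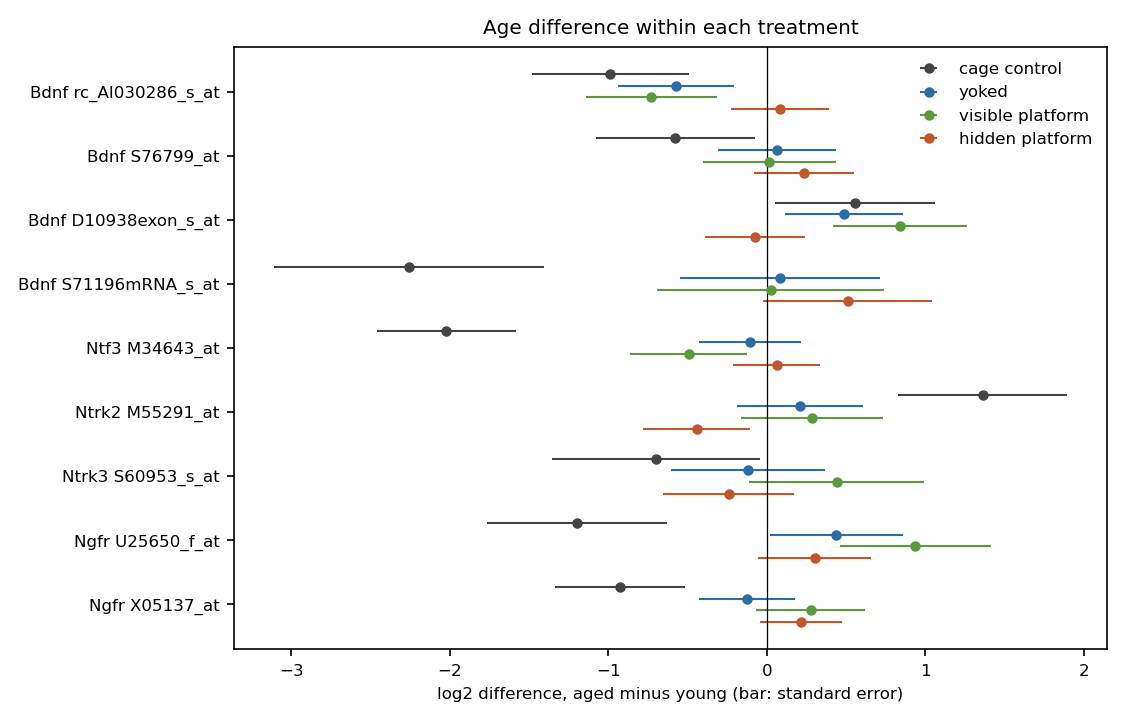
Log2 difference between 24-month and 3-month rats (x axis, points with SE) for the 9 tested probe sets in each of the 4 treatments. For 8 of the 9 sets the cage value is farthest from 0, Bdnf D10938exon_s_at (0.56 in cage and 0.84 in visible platform rats) being the exception. They reach -2.02 for Ntf3 M34643_at, -2.26 for Bdnf S71196mRNA_s_at and 1.36 for Ntrk2 M55291_at, and only the Ntf3 value in cage rats passed the threshold.

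Training was compared with the controls at each age. In young rats, hidden platform against cage gave 0 of 9 calls, against 5.28% of all tested probe sets, and 4 of 9 against 23.8% at an unadjusted p under 0.05 (limma). Ntrk2 M55291_at read 1101 to 1811 in the 6 hidden platform rats and 229.6 to 771.1 in the 3 cage rats. The difference was 1.70 ± 0.53 (limma adjusted p = 0.0579). Ntf3 M34643_at differed by -1.497 ± 0.49 (adjusted p = 0.0677) and Bdnf S71196mRNA_s_at by -2.14 ± 0.73 (adjusted p = 0.0777), with overlapping groups. These 3 values share the young cage arrays with the age difference in cage rats. Without the arrays of low correlation, which leaves 5 against 1 rat, they were 0.90 ± 0.60, -0.15 ± 0.57 and -1.03 ± 0.98, with adjusted p between 0.571 and 0.959.
Young yoked against cage rats gave 0 of 9 calls with 0.0953% of all called (3 of 9 and 17.7% at an unadjusted p under 0.05, limma), and Ntrk2 M55291_at differed by 1.203 ± 0.53 (adjusted p = 0.247), and by 0.34 ± 0.60 without the arrays of low correlation. Young hidden against visible and against yoked rats gave 0 of 9 calls, as did all tested probe sets (0% in each, limma). In those 2 comparisons 5.23% and 1.77% of all tested probe sets had an unadjusted p under 0.05, and 0 of the 9 did. Ntrk2 M55291_at was 0.90 ± 0.48 higher in hidden than in visible platform rats, but -0.01 ± 0.46 without the arrays of low correlation.

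In aged rats, hidden platform training was set against the visible platform, the yoked swim and the cage, with the unimpaired and impaired rats averaged. No neurotrophin or receptor set passed in any of them, where 0.0191%, 0% and 0% of all tested probe sets did (limma). At an unadjusted p under 0.05, 1, 0 and 2 of the 9 would have counted, against 11.4%, 2.96% and 8.56% of all. Ntrk3 S60953_s_at was lower in hidden than in visible platform rats by -0.80 ± 0.39 (adjusted p = 0.425), with 21 of 23 hidden platform rats under the visible mean, and differed by 0.02 ± 0.33 without the arrays of low correlation, of which 4 are visible platform rats. Against cage rats, Ntf3 M34643_at was higher by 0.59 ± 0.27 in hidden platform (adjusted p = 0.527), 0.87 ± 0.31 in yoked (adjusted p = 0.359) and 0.89 ± 0.31 in visible platform rats (adjusted p = 0.374), all 3 sharing the same 5 cage rats. All 8 yoked and all 8 visible platform rats lay above the cage mean. Ngfr X05137_at was higher in visible platform than in cage rats by 0.96 ± 0.32 (adjusted p = 0.355) and in yoked by 0.69 ± 0.32 (adjusted p = 0.501). Without the arrays of low correlation 20 hidden platform, 7 yoked, 4 visible platform and 4 cage rats remained. These Ngfr values were then 0.48 in visible platform and 0.36 in yoked rats. Ntf3 M34643_at differed from cage rats by 0.57 in hidden platform, 0.77 in yoked and 0.52 in visible platform rats, none of which passed. No probe set among the 9 passed in yoked or visible against cage rats, where 0.0191% and 0% of all did and 9.06% and 9.55% had an unadjusted p under 0.05 (2 of the 9 in each).

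The labelled learning groups were compared last. Between impaired and unimpaired rats 0 of 9 sets passed, and 0% of all tested probe sets did, while 12.9% of all and 1 of the 9 had an unadjusted p under 0.05 (limma). Ntrk2 M55291_at read 270.1, 352.5, 751.1, 785.7, 845.7, 946.4, 974.9, 1163.5, 1309.6 and 1749.5 in the 10 impaired rats. The unimpaired rats ran from 779.3 to 1834.9 with a median of 1416.7, so the groups overlapped although the lowest 2 impaired values stood apart. The difference was -0.65 ± 0.30 (adjusted p = 0.364, 8 of 10 impaired rats under the unimpaired mean) and -0.37 ± 0.21 (adjusted p = 0.435) without the arrays of low correlation, which hold those lowest 2. Bdnf rc_AI030286_s_at differed by 0.56 ± 0.29 (adjusted p = 0.392), with 7 of 10 impaired rats above the unimpaired mean. The dim Ntrk2 set M55293_at, tested with no signal limit, was higher in impaired rats by 1.29 ± 0.46 (adjusted p = 0.254), opposite in sign to M55291_at.
Between B and impaired rats 2 of the 9 sets and 32.1% of all had an unadjusted p under 0.05 (limma). Ntrk2 M55291_at passed, as 1 of 9, against 12% of all tested probe sets (5.8% higher in B). The 16 B rats read 767.9 to 2281.5 with a median of 1632.35, and the upper impaired values lay within that range. The signal rose by 0.95 ± 0.26 on the log2 scale in B over impaired rats (SE, 95% interval 0.44 to 1.45, limma adjusted p = 0.0144), and 15 of 16 B rats lay above the impaired mean. Without the arrays of low correlation, 16 against 8 rats, the difference was 0.61 ± 0.19 (adjusted p = 0.0304), where 9.34% of all passed. Leaving out impaired rat 83 gave 0.78 (adjusted p = 0.0621) and leaving out impaired rat 8 gave 0.82 (adjusted p = 0.0556), so either of these ends the call.
B rats did not differ in any of the 9 sets from unimpaired rats at the threshold (0.0572% of all passed, and 7.17% had an unadjusted p under 0.05, 0 of the 9), and M55291_at differed there by 0.30 ± 0.24 (95% interval -0.17 to 0.77). The second Ntrk2 set, M55293_at, differed by -0.67 ± 0.42 between B and impaired rats (limma adjusted p = 0.201 with no signal limit), opposite in sign to M55291_at. Without the arrays of low correlation this was -0.28 ± 0.35. Between B and unimpaired rats M55293_at shared the sign of M55291_at, with log2 means of 6.60 and 5.98. Without those arrays that difference was 0.75 ± 0.31 (limma adjusted p = 0.293). Among the markers, 2 of 5 interneuron and 1 of 4 CA1 markers were called higher in B, and 2 of 4 endothelial and mural markers lower. Of the astrocyte markers 0 of 4 and of the oligodendrocyte markers 0 of 5 were called either way, where 12% of all tested probe sets were. The interneuron markers called were Sst and Npy, which are also in the activity list below. Without the arrays of low correlation neither passed (limma adjusted p = 0.0834 and 0.182). Summed astrocyte signal, to which S100b and Slc1a3 add most, was 11930.6 to 19421.2 in B rats (median 13952.2). In impaired rats, which include 2 arrays of low correlation where B rats have none, it was 4007.1 to 18402.8 (median 11685.8), with overlap. The part of these cells in the Ntrk2 value was not tested. Of the 6 dim sets, Bdnf S76758_i_at was lower in B with no signal limit (21.3% of 8740 probe sets called), by -1.26 ± 0.33 (adjusted p = 0.0121), with all 16 B rats (7.6 to 121.8) under the impaired mean and impaired rats at 56.6 to 531.1. Without the arrays of low correlation it was -0.89 ± 0.31 (adjusted p = 0.0713, 5.93% of all called). Of the tested Bdnf sets, S76799_at differed by -0.61 ± 0.27 (adjusted p = 0.105), or -0.21 ± 0.21 (adjusted p = 0.548) without those arrays, and rc_AI030286_s_at by -0.14 ± 0.30 (adjusted p = 0.763).

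**Figure D4:**
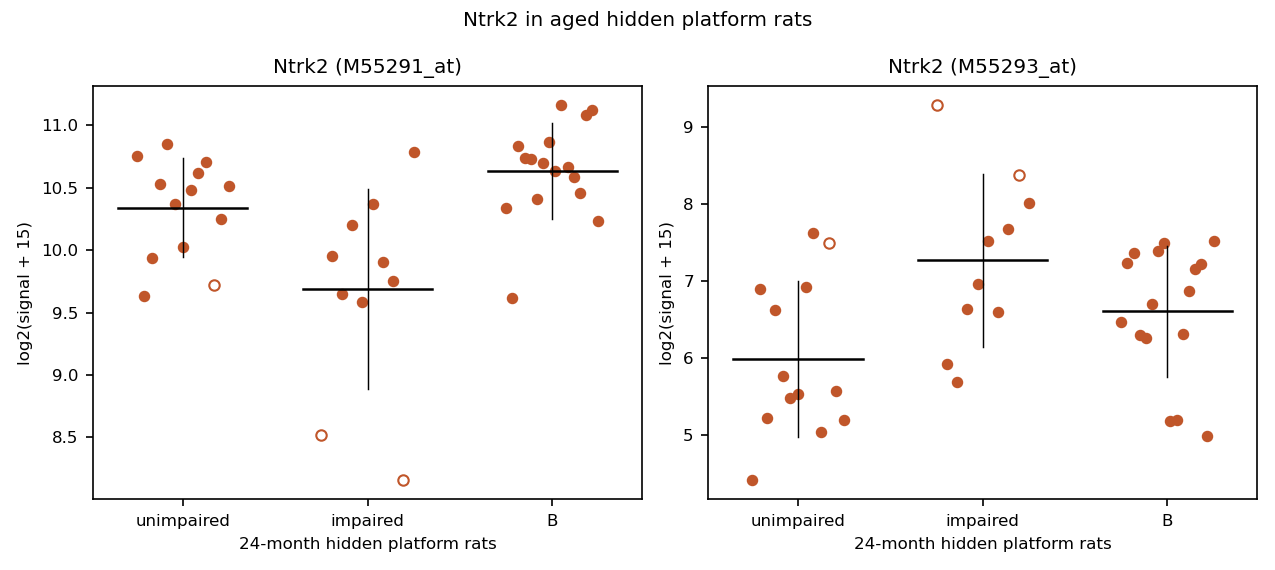
Log2(signal + 15) of both Ntrk2 probe sets in the 3 labelled groups of 24-month hidden platform rats; points are rats, open points arrays of low correlation, lines the group mean and 1 SD. M55291_at (left) is lowest in impaired rats, where the 2 open points read 270.1 and 352.5, while M55293_at (right) is highest in impaired rats, where the same arrays read 316.5 and 609.3.

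Genes around the receptors were counted in 4 lists, with 1 probe set for each gene. None of 13 tested genes of neurotrophin processing and related ligands and receptors, 25 of Trk signalling and 12 of p75 signalling passed for age, where 4.67% of 3233 genes did. Of 24 activity and BDNF responsive genes 1 rose and 2 fell: Syp, a synaptic vesicle protein, rose by 0.88 ± 0.21 (adjusted p = 0.00665), Egr2, an activity-induced transcription factor, fell by 0.87 ± 0.21 (adjusted p = 0.00768), and Sst, the interneuron peptide somatostatin, fell by 0.67 ± 0.21 (adjusted p = 0.0414). The list's median was -0.19 against -0.06 over all genes. Of the genes of smallest p in the other lists, Camk2b, a kinase subunit downstream of calcium, differed by 0.85 ± 0.30 (adjusted p = 0.0736), Pcsk2, a prohormone convertase, by 0.45 ± 0.19 (adjusted p = 0.143), and Nfkb1, a transcription factor downstream of p75, by 0.54 ± 0.23 (adjusted p = 0.141). All 3 passed without the arrays of low correlation, where 13.9% of all tested probe sets did against 5.13% with them, at 0.76 (adjusted p = 0.00505), 0.61 (adjusted p = 0.000613) and 0.73 (adjusted p = 0.00192). Sos1, a Ras activator, differed by -0.40, Map3k1, a kinase upstream of JNK, by -0.45, and Furin, a protease that cuts neurotrophin precursors, by -0.37, and none of them passed in either fit.
In B against impaired rats 12.2% of all genes passed. Among the processing genes Cadps2, which helps release BDNF from vesicles, rose by 0.86 and Mmp3, a protease able to cut the precursor, fell by 0.84 (2 of 13), and neither passed without the arrays of low correlation. In Trk signalling Ptpn11, the phosphatase SHP2, fell by 1.27 and Rps6kb1, the S6 kinase, fell by 0.87, both also without those arrays (-1.06 with adjusted p = 0.0271, and -0.69 with adjusted p = 0.00581), while Eif4ebp1, a translation repressor, rose by 0.75 and did not pass without them (3 of 25). Bad, a cell death protein, rose by 0.68 in the p75 list (1 of 12) and did not pass without them. In the activity list Nr4a1, an immediate early gene, rose by 0.95 and also did so without those arrays (0.66, adjusted p = 0.0303), and Sst, Npy and Nrn1 rose by 0.90, 0.67 and 0.56 and passed only with them (4 of 24).
In young hidden against cage rats 4.3% of all genes passed, among them Camk2b (1.94 ± 0.54, 1 of 25 Trk signalling genes) and, of 24 activity genes, Arc, a synaptic immediate early gene (1.33 ± 0.37), and Dusp6, a phosphatase of ERK (2.30 ± 0.65). These 3 rose in all 6 hidden platform rats over the cage mean. With only 1 cage rat left, Arc passed (2.09, adjusted p = 0.0415, where 0.133% of all tested probe sets did), and Camk2b and Dusp6 did not. No gene of the 4 lists passed between impaired and unimpaired rats, where 0% of all tested probe sets did. The same held for aged hidden platform against visible platform, yoked and cage rats, where 0.0191%, 0% and 0% of all tested probe sets passed.

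By Spearman correlation over the 79 arrays, among 3232 other genes, the pattern most like that of Ntrk2 M55291_at was that of Iqsec1 (0.71), followed by Pfkm (0.70) and Atp6ap1 (0.68). Over the 65 arrays without low correlation Iqsec1 stayed among the top 3 (0.59), behind Mboat7 (0.60) and ahead of Arrb2 (0.59). For Ntrk3 S60953_s_at the first 3 were Vdr (0.70), Myl6 (0.65) and Cga (0.62), with Vdr again first over 65 arrays (0.65), followed by St8sia3 (0.65) and Cyss (0.63). For Ngfr U25650_f_at they were Mybph (0.61), Ctsj (0.58) and Tmed10 (0.57), with Akr1c3 (0.62), Mybph (0.62) and Rxrg (0.58) over 65. For Bdnf rc_AI030286_s_at they were Aftph (0.60), Ppp1r21 (0.59) and Marcks (0.58), against Fdps (0.71), Ubr1 (0.63) and Fam241b (0.63) over 65. For Ntf3 M34643_at they were Dyrk1a (0.56), Casq1 (0.54) and Ripor1 (0.54), against Pcp4 (0.57), Itga7 (0.56) and Cstb (0.51) over 65. For Bdnf and Ntf3 none of the first 3 genes was the same in both sets of arrays, and such values share arrays, RNA quality and cell makeup.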

How the data were processed

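Each deposited table holds linear intensity, as a signal for every probe set of an array. MAS5 made these signals, per the submitters' processing notes, and the RNA had 2 rounds of amplification, per the labels. The mean of each array without its outer 2% of values on each side was 500.1 to 501.0, so arrays had been scaled before deposit. Precision is limited by the number of arrays, and replicates are separate rats by their animal numbers. The 5 genes and all lists were chosen with earlier results of these data known. Values were tested as log2(signal + 15) with limma 3.58.1 (R 4.3.3; moderated test with trend, two-sided, Benjamini-Hochberg, adjusted p under 0.05) without 59 control probe sets and without the dimmest 40% by mean signal. On this scale the change of low genes is understated. Intervals of 95% are normal intervals from the SE. Age was fitted over 63 arrays with treatment as a term. Treatments within an age were fitted as 1 mean for each group, and B rats with unimpaired and impaired rats and the other aged groups. There were 14 such comparisons, with age within each of 4 treatments added after the data were seen. Pairs of probe sets were compared by permutation (Python 3.11.15, scipy 1.17.1). The settings varied were the pseudocount (1 or 60), the filter (none or 60%), scaling (quantile or median centred), robust variance without trend, array weights, the 3′ to 5′ ratio, arrays of low correlation left out, 1 fit over 79 arrays, and each array left out. Fits were tested on simulated data. Genes named from the lists are those past the threshold, at most 4 for each list and comparison, and for age also the 2 of smallest p; the 3 most correlated genes are named for each member. Symbols came from the platform's probe annotation, updated through the gene identifier for 6994 of the 7018 probe sets with 1 symbol. Genome positions of the probes were not used here.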

Additional observations from a re-analysis of the deposited data

Results flagged for a closer look

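In 11 of 105 pairs of a probe set and a group of 4 to 10 rats, 1 rat stood apart from its group by Dixon's test, where chance flags about 1 in 20 groups (5%), and 9 of the 11 came from arrays of low correlation. For Bdnf, young yoked rat 60 read 1184.6 on rc_AI030286_s_at (group median 249.7) and young hidden rat 37 read 57.9 on S76799_at (median 278.95), and these were the 2 on other arrays. Impaired rat 8 read 1166.9 on Bdnf rc_AI030286_s_at, 791.6 on Bdnf X67108_at and 358.8, the lowest of its group, on Ngfr U25650_f_at. Aged yoked rat 63 read 550.8 on Bdnf S71196mRNA_s_at and 2814.2 on Ngfr U25650_f_at. Young visible rat 65 read 183.6 on Bdnf S76758_i_at, where the rest of its group reached 74.5. Impaired rat 83 read 1935.5 on Ntrk3 S60953_s_at, aged cage rat 99 read 141.4 on Ngfr U25650_f_at, below the next value of 786.3, and aged visible rat 67 read 1518.1 on Ngfr X05137_at. The part of array quality in these values was not tested.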

How the results depend on the processing

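The Ntrk2 M55291_at call between B and impaired rats kept its direction and side of the threshold under all 11 alternatives to the reported setting (0.61 to 1.06 on the log2 scale, limma adjusted p 0.00308 to 0.0401), and the number of called sets there was 0 to 2 when 1 array was left out, the second being Bdnf S76799_at without impaired rat 44 (-0.79, adjusted p = 0.0341). In cage rats the number called for age was 1 as reported, 2 with a pseudocount of 60, 6 with array weights, 3 in 1 fit over 79 arrays, 0 with the 3′ to 5′ ratio, 0 without arrays of low correlation, and 1 to 4 with 1 array left out, where leaving out young cage rat 74 gave 4 and aged yoked rat 63 gave 3. In young hidden against cage rats it was 0 as reported, 1 with a 60% filter, 2 with quantile normalization, 2 with array weights, 3 in 1 fit over 79 arrays, and 0 to 3 with 1 array left out, where leaving out young cage rat 74 gave the 3. For the interaction it was 3 with array weights, 1 in 1 fit over 79 arrays and 0 to 1 with 1 array left out. For young yoked against cage it was 2 with array weights and 0 to 1 with 1 array left out, and for age 1 in 1 fit over 79 arrays (Ntf3 M34643_at, -0.64, adjusted p = 0.00824). The number of probe set pairs past the threshold was 5 (4 positive and 1 negative), and 0 without arrays of low correlation. The cause of these changes was not tested.

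Log2 differences whose sign changed are given here by setting, and none of them passed in either setting. With a pseudocount of 1, age in visible gave -0.012 for S71196mRNA_s_at. With a pseudocount of 60, aged hidden against yoked gave 0.027 for S71196mRNA_s_at. Young yoked against cage gave -0.012 for D10938exon_s_at. In 1 fit over 79 arrays, age gave -0.066 for S76799_at. With median centring, impaired against unimpaired gave -0.013 for S60953_s_at. Aged hidden against visible gave 0.076 for rc_AI030286_s_at. Aged hidden against yoked gave 0.051 for S71196mRNA_s_at. Aged yoked against cage gave -0.13 for D10938exon_s_at and -0.090 for M55291_at. Young hidden against yoked gave -0.062 for S60953_s_at. Young yoked against cage gave 0.11 for S76799_at and 0.022 for X05137_at. Age in yoked gave -0.013 for S76799_at. Age in visible gave -0.019 for S76799_at and -0.010 for S71196mRNA_s_at. With quantile normalization, age gave 0.0064 for X05137_at. Aged hidden against visible gave 0.064 for rc_AI030286_s_at and -0.013 for U25650_f_at. Aged hidden against yoked gave 0.10 for S71196mRNA_s_at and 0.074 for S60953_s_at. Aged yoked against cage gave -0.22 for D10938exon_s_at and -0.087 for M55291_at. Young hidden against yoked gave -0.038 for S60953_s_at. Young yoked against cage gave 0.15 for S76799_at. B against impaired gave 0.0093 for D10938exon_s_at. Age in yoked gave -0.017 for S76799_at and -0.075 for S71196mRNA_s_at. Age in visible gave -0.054 for S71196mRNA_s_at. Age in hidden gave 0.0029 for D10938exon_s_at. With the 3′ to 5′ term, age gave 0.041 for S71196mRNA_s_at and 0.017 for X05137_at. For impaired against unimpaired it gave -0.24 for S60953_s_at and -0.097 for U25650_f_at. For aged hidden against visible it gave 0.28 for S71196mRNA_s_at and -0.076 for M55291_at. For aged hidden against yoked it gave 0.26 for S71196mRNA_s_at and 0.14 for S60953_s_at. For aged hidden against cage it gave 0.12 for M55291_at and -0.074 for S60953_s_at. For aged yoked against cage it gave 0.0072 for rc_AI030286_s_at, -0.092 for D10938exon_s_at, -0.0018 for S71196mRNA_s_at and -0.21 for S60953_s_at. For aged visible against cage it gave -0.023 for S71196mRNA_s_at and 0.19 for M55291_at. For young hidden against yoked it gave -0.037 for S60953_s_at. For young hidden against cage it gave -0.16 for D10938exon_s_at. For young yoked against cage it gave 0.42 for S76799_at, -0.41 for D10938exon_s_at and 0.17 for X05137_at. For age in cage it gave 0.22 for S76799_at and 0.40 for S60953_s_at. For age in visible it gave -0.081 for S76799_at and -0.17 for S71196mRNA_s_at. With array weights, age gave -0.18 for S76799_at. For impaired against unimpaired it gave -0.14 for S76799_at, -0.13 for S71196mRNA_s_at, 0.030 for M34643_at and -0.21 for S60953_s_at. For aged hidden against visible it gave 0.11 for D10938exon_s_at, 0.12 for M34643_at and -0.26 for M55291_at. For aged hidden against yoked it gave 0.016 for D10938exon_s_at. For aged hidden against cage it gave -0.067 for S76799_at, -0.064 for S71196mRNA_s_at and 0.091 for M55291_at. For aged yoked against cage it gave -0.25 for D10938exon_s_at. For aged visible against cage it gave 0.35 for M55291_at and -0.061 for U25650_f_at. For young hidden against visible it gave 0.035 for X05137_at. For young hidden against yoked it gave 0.036 for rc_AI030286_s_at and 0.20 for U25650_f_at. For young yoked against cage it gave 0.00097 for X05137_at. For B against impaired it gave 0.077 for rc_AI030286_s_at and 0.41 for S71196mRNA_s_at. For age in yoked it gave -0.082 for S76799_at, -0.24 for S71196mRNA_s_at and 0.040 for M34643_at. For age in visible it gave 0.019 for rc_AI030286_s_at, -0.18 for S76799_at, -0.31 for S71196mRNA_s_at and -0.62 for S60953_s_at. For age in hidden it gave -0.080 for rc_AI030286_s_at, -0.23 for S76799_at, -0.12 for S71196mRNA_s_at and -0.20 for X05137_at. Without arrays of low correlation, age gave -0.032 for S76799_at and 0.013 for S71196mRNA_s_at. In impaired against unimpaired this left -0.12 for S76799_at, 0.12 for M34643_at and -0.028 for S60953_s_at. In aged hidden against visible this left 0.063 for D10938exon_s_at, 0.056 for M34643_at, -0.16 for M55291_at and 0.022 for S60953_s_at. In aged hidden against yoked this left 0.041 for S60953_s_at. In aged hidden against cage this left -0.16 for S76799_at and 0.037 for M55291_at. In aged visible against cage this left 0.20 for M55291_at and -0.52 for U25650_f_at. In young hidden against visible this left -0.046 for D10938exon_s_at, -0.014 for M55291_at and 0.12 for X05137_at. In young hidden against yoked this left -0.21 for S60953_s_at and 0.037 for U25650_f_at. In young hidden against cage this left 0.12 for S76799_at and 0.58 for X05137_at. In young yoked against cage this left 0.68 for S76799_at, 0.37 for M34643_at, 0.15 for S60953_s_at and 0.77 for X05137_at. In B against impaired this left 0.0013 for rc_AI030286_s_at and 0.24 for S71196mRNA_s_at. In age in cage this left 0.30 for S76799_at and 0.14 for X05137_at. In age in yoked this left -0.070 for S76799_at and -0.28 for S71196mRNA_s_at. In age in visible this left -0.30 for S76799_at, -0.079 for D10938exon_s_at, -0.16 for M55291_at and -0.74 for S60953_s_at. In age in hidden this left -0.12 for rc_AI030286_s_at, 0.029 for D10938exon_s_at and -0.16 for X05137_at.

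Of the correlations between Bdnf probe sets, these changed sign. With quantile normalization, rho turned to -0.032 for rc_AI030286_s_at with S76799_at, -0.20 for S76799_at with D10938exon_s_at, -0.055 for S76799_at with X67108_at and -0.10 for D10938exon_s_at with S71201mRNA_at. It also turned to -0.32 for S71196mRNA_s_at with S76758_i_at, -0.096 for S71196mRNA_s_at with X67108_at, -0.26 for S76758_i_at with S71201mRNA_at and -0.0067 for S71201mRNA_at with X67108_at. Without arrays of low correlation, rho turned to 0.0032 for rc_AI030286_s_at with S76758_i_at, -0.020 for S76799_at with S71201mRNA_at, -0.066 for S71196mRNA_s_at with S76758_i_at and -0.099 for S71196mRNA_s_at with X67108_at. It also turned to -0.19 for S76758_i_at with S71201mRNA_at, -0.066 for S76758_i_at with X67108_at and -0.11 for S71201mRNA_at with X67108_at. Of these only S71196mRNA_s_at with S76758_i_at passed after quantile normalization (adjusted permutation p = 0.0292). In the reported setting its rho was 0.050 (adjusted permutation p = 0.826).

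With 1 array left out, the differences below held both signs and passed in none of these fits. Age ran from -0.11 to 0.059 for S76799_at, -0.13 to 0.034 for X05137_at and -0.26 to 0.038 for S71196mRNA_s_at. Impaired against unimpaired ran from -0.076 to 0.076 for M34643_at, -0.22 to 0.052 for D10938exon_s_at, -0.22 to 0.29 for S60953_s_at and -0.015 to 0.30 for U25650_f_at. Aged hidden against visible ran from -0.20 to 0.057 for rc_AI030286_s_at, -0.35 to 0.18 for S71196mRNA_s_at, -0.062 to 0.29 for M55291_at and -0.21 to 0.38 for U25650_f_at. Aged hidden against yoked ran from -0.33 to 0.14 for S60953_s_at, -0.19 to 0.36 for S71196mRNA_s_at and -0.22 to 0.054 for X05137_at. Aged hidden against cage ran from -0.21 to 0.087 for M55291_at. Aged yoked against cage ran from -0.057 to 0.30 for M55291_at, -0.26 to 0.23 for rc_AI030286_s_at and -0.16 to 0.22 for D10938exon_s_at. Aged visible against cage ran from -0.21 to 0.17 for D10938exon_s_at and -0.034 to 0.79 for U25650_f_at. Young hidden against visible ran from -0.56 to 0.16 for S60953_s_at. Young hidden against yoked ran from -0.21 to 0.30 for S60953_s_at, -0.38 to 0.11 for rc_AI030286_s_at and -0.26 to 0.037 for U25650_f_at. Young hidden against cage ran from -0.42 to 0.093 for S60953_s_at and -0.031 to 1.25 for D10938exon_s_at. Young yoked against cage ran from -0.36 to 0.16 for S76799_at, -0.37 to 0.90 for D10938exon_s_at and -0.54 to 0.24 for X05137_at. B against impaired ran from -0.23 to 0.053 for rc_AI030286_s_at. Age in yoked ran from -0.26 to 0.069 for M34643_at, -0.36 to 0.11 for S60953_s_at, -0.070 to 0.20 for S76799_at, -0.28 to 0.27 for S71196mRNA_s_at and -0.018 to 0.46 for M55291_at. Age in visible ran from -0.20 to 0.23 for S76799_at, -0.38 to 0.42 for S71196mRNA_s_at, -0.21 to 0.62 for M55291_at and -0.0047 to 0.72 for S60953_s_at. Age in hidden ran from -0.090 to 0.27 for M34643_at, -0.12 to 0.36 for S76799_at, -0.072 to 0.19 for rc_AI030286_s_at, -0.17 to 0.075 for D10938exon_s_at and -0.027 to 0.34 for X05137_at.

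Over all tested probe sets the number called ranged more widely across the 11 alternatives. It was 269 for age (192 to 1134), 16 for the interaction (0 to 1850), 629 for B against impaired (409 to 1864), 277 for young hidden against cage (0 to 1484), 904 for age in cage rats (80 to 2513), 5 for young yoked against cage (1 to 1221), 3 for B against unimpaired (1 to 436) and 1 for aged hidden against visible (0 to 513). It was 0 for aged hidden against yoked (0 to 8) and against cage (0 to 118), 1 for aged yoked against cage (0 to 75), 0 for aged visible against cage (0 to 208) and 0 for young hidden against visible (0 to 22). Within treatments it was 0 for age in yoked (0 to 341), 2 in visible platform (0 to 552) and 0 in hidden platform rats (0 to 149). With 1 array left out it ran from 171 to 434 for age, 1 to 125 for the interaction, 187 to 895 for B against impaired, 4 to 533 for young hidden against cage and 435 to 1098 for age in cage rats. The median of all probe sets in cage rats moved by -0.27 with age, -0.19 after quantile normalization and -0.09 after centring. No paired analysis was possible because each animal number occurs in 1 group only. Dim probe sets limit what can be said of most Bdnf sets, and the young cage group of 3 rats limits every value set against it.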
